A study of Mus musculus with 93 samples.

Results

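Pyruvate dehydrogenase kinase 4 (Pdk4, Entrez Gene 27273) was represented in the authors' table by probeset 1417273_at. Members were chosen by the gene symbol in the platform annotation, and this probeset was the only 1 of 11463 that carries the symbol Pdk4, so the level of the gene rests on 1 measurement per liver. Its signal was read in 93 livers, 1 array per mouse, in 20 groups. All mice were male, had been fasted for 4 hours, received 400 µl by gavage and were killed 6 hours later. WT mice were of strain 129S1/SvImJ and PPARα −/− mice of strain 129S4/SvJae, so genotype and substrain cannot be told apart.

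The synthetic triglycerides each contained a single fatty acid: C10:0 (capric), C18:1 (oleic), C18:2 (linoleic), C18:3 (linolenic), C20:5 (eicosapentaenoic) or C22:6 (docosahexaenoic acid). The PPARα agonists WY14643 and fenofibrate were given at 10 mg/ml (4 mg) in 0.5% carboxymethyl cellulose, and the controls received this vehicle alone. In the first run (56 arrays), WT groups held 3 controls, 4 mice given WY14643 and 5 mice each for fenofibrate, C18:1, C20:5 and C22:6, and PPARα −/− groups held 5 mice each, 4 for C20:5. In the later run (37 arrays), made some months afterwards with controls of its own, both genotypes had 4 controls and 5 mice each for C10:0 and C18:3, and C18:2 was given to 4 WT and 5 PPARα −/− mice. First-run controls and WY14643 mice are labelled 12 to 20 weeks old and all others 8 to 24 weeks, so fenofibrate, C18:1, C20:5 and C22:6 were set against controls of a narrower age range. The PPARα −/− mice lack the receptor in all cells, and the vehicle controls received no fat.

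The pyruvate dehydrogenase complex converts pyruvate to acetyl-CoA in mitochondria. Pyruvate dehydrogenase kinases phosphorylate and switch off its E1 subunit, and phosphatases switch it on again. Pdk4 is the kinase isoform best known for being raised by fasting, fat and PPARα ligands, and it saves pyruvate for glucose synthesis while fatty acids are burned.

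The promoter of Pdk4 is shown because the gene rose after both agonists. The 250 bases before its start are chr6:5496279-5496528 on the minus strand of GRCm38.p6, from RefSeq, written 5′ to 3′ with the CCAAT box, here on the opposite strand, in capitals.
Pdk4: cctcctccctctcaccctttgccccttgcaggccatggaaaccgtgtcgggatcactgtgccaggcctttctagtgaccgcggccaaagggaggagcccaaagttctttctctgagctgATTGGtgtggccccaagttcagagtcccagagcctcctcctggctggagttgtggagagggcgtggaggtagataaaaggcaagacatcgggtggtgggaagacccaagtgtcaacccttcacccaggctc
Exact matches on both strands were searched in the window of these bases plus the 50 that follow. CCAAT was found once, 131 bases before the start, and 37.4% of all 32851 RefSeq promoter windows hold it. The nuclear receptor motif AGGTCA, in 16.3% of all windows, had no match in this window, nor had its direct repeat with 1 base between (0.0396%), which contains it, the forkhead motif GTAAACA (3.65%), the glucocorticoid receptor motif AGAACA (19%) or TATAAA (13.6%). Regulatory sites outside this window were not looked at.

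The authors' intensities were on the linear scale, and their log2 is called the signal here. Arrays of the first run had median intensities of 135 to 145, those made later 154 to 167, and each group was therefore set against controls of its own run. Of 3 Ppara probesets, 1 separated the genotypes, with 8.10 to 9.52 in 45 WT livers and 5.94 to 7.93 in 48 PPARα −/− livers. Of 8 hepatocyte markers 7 were measured, and their summed level lay between 15.83 and 16.55 on the log2 scale in all arrays. This sum is carried by the most abundant genes, and 2 of the 7 were lower in WT mice after the agonists, the urea cycle enzymes Cps1 (-0.52 after WY14643 and -0.40 after fenofibrate, adjusted p = 2.8e-07 and 6.3e-05) and Ass1 (-2.22 and -1.85, adjusted p = 0.00037 and 0.0042, at or below the 10th percentile of the treated arrays), and their part in the Pdk4 values was not tested. None of 6 skeletal muscle and 5 adipocyte markers was among the probesets fitted. All 6 macrophage markers were fitted, and the deviations of their sum from the group means correlated with those of Pdk4 by -0.013 over 93 livers. These are whole livers, so more cells that express Pdk4 and more Pdk4 RNA per cell cannot be told apart.

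Both agonists raised Pdk4 in WT mice. In the 3 first-run WT controls the signal was 2.89, 4.26 and 3.66 (mean 3.60 ± 0.69 SD, n = 3), which is at or below the 10th percentile of each array, so these values mark a floor and have no order. After WY14643 it was 11.84, 12.06, 11.94 and 12.02 (11.96 ± 0.10, n = 4), between the 97.8th and 98.3rd percentile of the arrays. All 4 WY14643 livers lay far above all 3 controls. The share of all probesets that lay apart from the controls in this way is not given for either agonist. The log2 change was 8.36 (SE 0.74, adjusted p = 2.6e-15 in limma's moderated test), and counted from the array's 10th percentile it was at least 7.04, or at least 132-fold. Of the 10349 probesets fitted 12.5% rose.

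After fenofibrate the Pdk4 signal in WT mice was 10.51, 10.05, 9.24, 10.70 and 10.97 (10.29 ± 0.68, n = 5), again without overlap with the controls. The change was 6.69 (SE 0.71, adjusted p = 1.0e-11), at least 5.37 from the floor or at least 41.4-fold. Of all probesets 7.51% rose. Leaving out each mouse in turn kept the change between 8.01 and 8.69 for WY14643 and between 6.33 and 7.02 for fenofibrate.

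**Figure D1:**
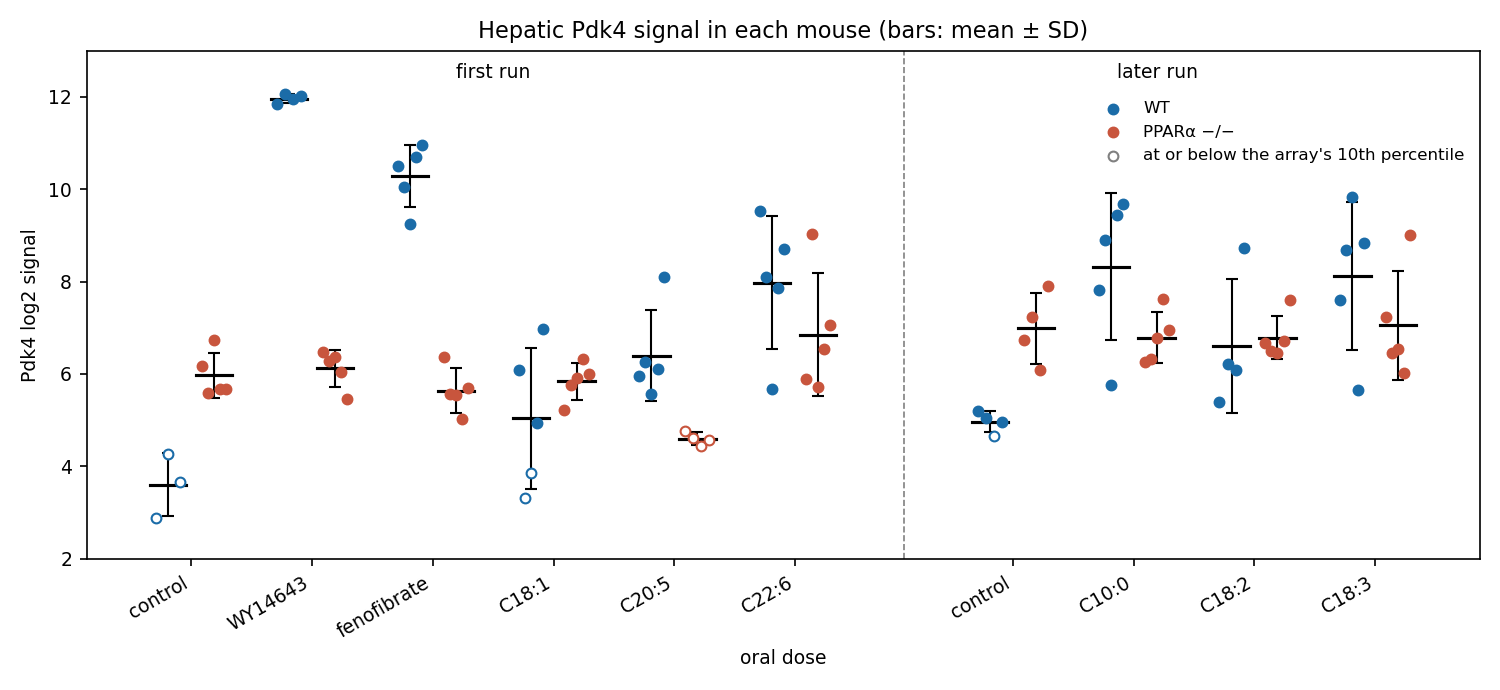
Log2 signal of Pdk4 in each of 93 livers, by oral dose, for WT (blue) and PPARα −/− mice (red), with the mean and SD of each group as black bars and open circles for values at or below the 10th percentile of their array. WT livers spread from the floor in first-run controls to about 12 after WY14643, whereas the PPARα −/− groups lie between means of 4.59 and 7.05.

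Of the first-run triglycerides, C22:6 and C20:5 raised Pdk4 in WT mice. The signal after C22:6 was 9.54, 8.09, 5.68, 7.86 and 8.70 (7.97 ± 1.44, n = 5), and after C20:5 it was 5.96, 6.25, 5.57, 6.11 and 8.10 (6.40 ± 0.98, n = 5). Every mouse of both groups lay above every control, although C22:6 replicate 3 lay within the C20:5 range. The share of all probesets that lay apart in this way is not given for these doses. Between the first-run controls of both genotypes it was 6.72%, which is another comparison and does not stand in for the missing share. The change was 4.37 for C22:6 (SE 0.71, adjusted p = 1.1e-05), at least 3.05 from the floor or at least 8.29-fold, while 3.71% of probesets rose. For C20:5 it was 2.80 (SE 0.71, adjusted p = 0.036), at least 1.48 from the floor or at least 2.78-fold, while 0.493% rose. The C22:6 call was lost in a fit of the compared groups alone (adjusted p = 0.055). The C20:5 call was lost there (0.15), with signals raised to the array's 10th percentile (0.46), and in 7 of 8 fits that left out 1 mouse (2.37 to 3.13, adjusted p up to 0.18), all but the fit without C20:5 replicate 3.

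After C18:1 the Pdk4 signal in WT mice was 6.09, 3.30, 3.86, 4.94 and 6.98 (5.03 ± 1.52, n = 5). Replicates 2 and 3 lay at the floor with the controls, and the other 3 mice lay above all controls. The change of 1.43 (95% interval 0.03 to 2.84, adjusted p = 0.61) did not pass the test, and from the floor it was at least 0.11. Here limma called 0% of the probesets, with 832 at an unadjusted p under 0.05.

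In the later run, C10:0 and C18:3 raised Pdk4 in WT mice. The later WT controls had a signal of 5.19, 5.05, 4.66 and 4.95 (4.97 ± 0.22, n = 4), of which 1 was at or below the 10th percentile. After C10:0 it was 7.83, 8.90, 5.77, 9.45 and 9.68 (8.33 ± 1.60, n = 5), and after C18:3 it was 7.61, 8.69, 9.84, 5.64 and 8.83 (8.12 ± 1.60, n = 5). All 10 mice lay above all 4 controls, with 4 of 5 in each group well above and C10:0 replicate 3 and C18:3 replicate 4 close to them. The share of all probesets that lay apart in this way is not given for these doses. After C18:2, against the same controls but with 4 treated mice instead of 5, it was 4.64%, which does not stand in for the missing share. The change was 3.36 for C10:0 (SE 0.65, adjusted p = 0.0015), or 10.3-fold, ranking 8 among all rises while 1.19% of probesets rose. For C18:3 it was 3.16 (SE 0.65, adjusted p = 0.0013), or 8.91-fold, ranking 4 while 2.51% rose. Both calls were lost in fits of the compared groups alone (adjusted p = 0.14 and 0.10).

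After C18:2 the signal was 5.40, 6.21, 6.09 and 8.72 (6.60 ± 1.46, n = 4). All 4 mice lay above all 4 controls, as was the case for 4.64% of the probesets fitted. The change of 1.64 (95% interval 0.28 to 3.00, adjusted p = 0.32) did not pass the test, where 0.377% of probesets rose. Without replicate 4 it was 0.93 (adjusted p = 0.76).

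In PPARα −/− mice limma called 0 of the 8 changes of Pdk4, with 1 at an unadjusted p under 0.05. The signal in their first-run controls was 6.17, 5.59, 6.73, 5.67 and 5.68 (5.97 ± 0.49, n = 5). After WY14643 it was 6.47, 6.28, 6.36, 6.04 and 5.47, after fenofibrate 6.37, 5.57, 5.55, 5.02 and 5.70, and after C18:1 5.22, 5.77, 5.92, 6.31 and 5.99. These 3 treated groups overlapped with the controls, and their changes were 0.15 (95% interval -1.07 to 1.37), -0.33 (-1.55 to 0.89) and -0.13 (-1.35 to 1.09). The share of probesets called by limma was 0% for WY14643, with 671 at an unadjusted p under 0.05, and 0.126% for fenofibrate and 1.48% for C18:1. The agonists' intervals reach at most 1.37, far below the 8.36 and 6.69 measured in WT mice.

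C22:6 and C20:5 gave the extremes among PPARα −/− groups of the first run. After C22:6 the signal was 5.89, 9.03, 5.71, 6.55 and 7.07 (6.85 ± 1.33, n = 5), with replicate 2 above the others. The change was 0.88 (95% interval -0.34 to 2.10, adjusted p = 0.35), 0.34 without replicate 2, although 14.9% of probesets were called. In the same livers 4 of 6 macrophage markers were higher than in the controls (summed level 10.41 to 11.22 against 8.18 to 10.87), Cela1 of the pancreas (-0.74, adjusted p = 0.028) and Alas2 of red blood cells (-0.64, adjusted p = 0.0047) were lower, and replicate 2 had the lowest weight of all 93 arrays in the fit with array weights (0.267). Their part in these values was not tested. After C20:5 it was 4.77, 4.61, 4.43 and 4.56 (4.59 ± 0.14, n = 4), all at or below the 10th percentile of their arrays and all below the 5 controls, as was the case for 1.04% of probesets. The change of -1.38 (adjusted p = 0.88, with 0.0676% of probesets called), or -0.94 when counted to the floor, did not pass limma's test over all probesets. The exact two-sided permutation test of these groups alone gave p = 0.016, the smallest p it can give.

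In the later run the PPARα −/− controls had a signal of 6.74, 7.23, 6.09 and 7.90 (6.99 ± 0.77, n = 4). C10:0 gave 6.25, 6.32, 6.77, 7.63 and 6.94, C18:2 gave 6.67, 6.49, 6.45, 6.72 and 7.60, and C18:3 gave 7.23, 6.46, 6.55, 6.02 and 9.02. All 3 groups overlapped with the controls, and only C18:3 replicate 5 lay above all of them. The changes were -0.20 (95% interval -1.50 to 1.09), -0.20 (-1.49 to 1.09) and 0.07 (-1.23 to 1.36), where 6.92%, 0.271% and 10.6% of probesets were called. Without replicate 5 the C18:3 value was -0.43.

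**Figure D2:**
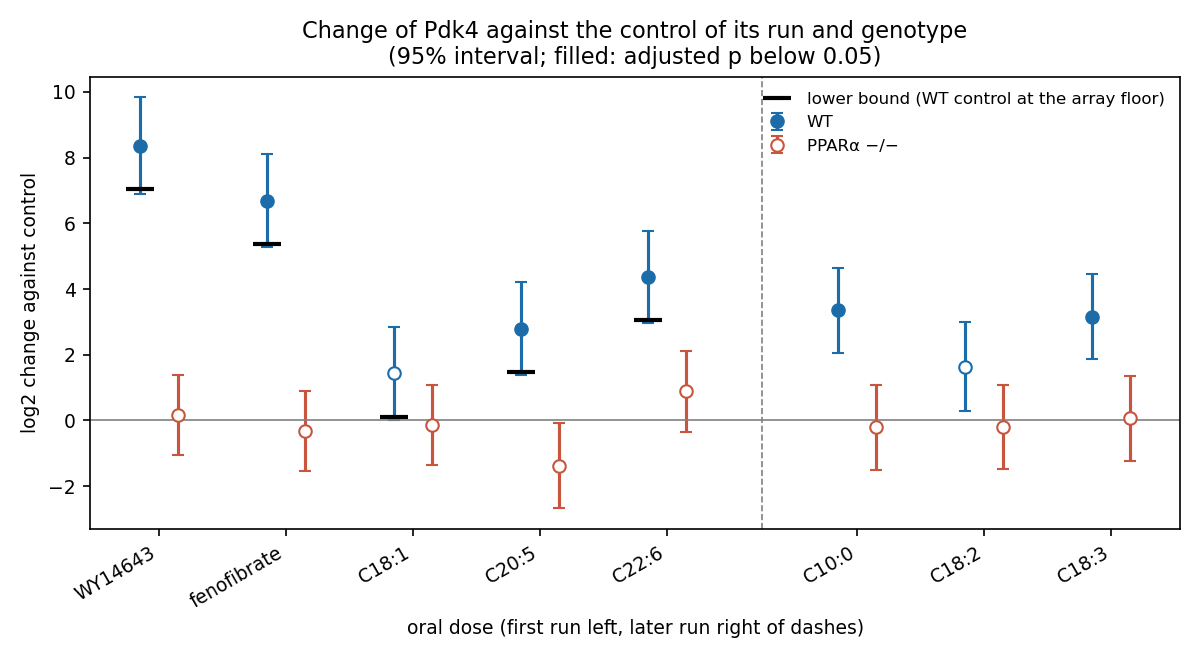
Log2 change of Pdk4 against the control of its run and genotype, with 95% intervals, for 8 oral doses in WT (blue) and PPARα −/− mice (red), filled where the adjusted p is under 0.05, with black dashes for the lower bound where the WT controls lay at the array floor. The 6 filled points are all WT, with WY14643 highest at 8.36, and the 8 PPARα −/− intervals reach at most 2.10.

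The difference between the genotypes in the change of Pdk4 was itself tested, PPARα −/− minus WT. It was -8.21 for WY14643 (SE 0.96, adjusted p = 3.8e-10), -7.02 for fenofibrate (SE 0.93, adjusted p = 9.7e-08) and -3.49 for C22:6 (SE 0.93, adjusted p = 0.021). Negative differences were called for 8.31%, 4.37% and 2.29% of probesets. With signals raised to the array's 10th percentile the C22:6 difference was -2.17 (adjusted p = 0.17), whereas the agonists kept -6.89 and -5.70 (adjusted p = 8.4e-09 and 2.1e-06). The C22:6 call was also lost without WT C22:6 replicate 1 (-3.10, adjusted p = 0.060) and without PPARα −/− C22:6 replicate 3 (-3.21, adjusted p = 0.053).

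None of the other triglycerides passed this test. The difference was -4.17 for C20:5 (adjusted p = 0.087), and since both the WT controls and the PPARα −/− C20:5 livers lay at the floor, it was -2.41 with signals raised to the 10th percentile. It was -3.09 for C18:3 (adjusted p = 0.076), -3.56 for C10:0 (adjusted p = 0.29), -1.84 for C18:2 (adjusted p = 0.93) and -1.56 for C18:1 (adjusted p = 0.69). The shares of probesets with a called negative difference were 0.029%, 0.647%, 0.00966%, 0% and 0%, in this order, and for C18:2 and C18:1 limma left 543 and 845 probesets at an unadjusted p under 0.05. Without WT C10:0 replicate 3 the C10:0 difference passed (-4.20, adjusted p = 0.023), and so did that of C18:3 without WT C18:3 replicate 4 (-3.71, adjusted p = 0.021) or PPARα −/− C18:3 replicate 5 (-3.58, adjusted p = 0.043). Only the agonists and C22:6 therefore passed the test of the difference in the fit of all arrays, and the values of 1 run share their controls.

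Without any treatment, Pdk4 was higher in PPARα −/− than in WT livers of the first run. There the 5 PPARα −/− controls (5.59 to 6.73) lay above the 3 WT controls (2.89 to 4.26), by 2.37 (SE 0.71, adjusted p = 0.020), at least 1.05 from the floor or at least 2.07-fold. Of all probesets 4.15% were called higher and 6.72% did not overlap in this direction. In the later run the 4 PPARα −/− controls (6.09 to 7.90) lay above the 4 WT controls (4.66 to 5.19), by 2.02 (SE 0.68, adjusted p = 0.054), or 4.06-fold. This later difference missed the threshold, where 3.36% of probesets were called higher and 5.1% did not overlap. The first-run call was lost with signals raised to the 10th percentile (adjusted p = 0.38) and without WT control replicate 1 (2.01, adjusted p = 0.11), WT control replicate 3 (2.40, adjusted p = 0.056) or PPARα −/− control replicate 3 (2.18, adjusted p = 0.056), and the later difference passed without PPARα −/− control replicate 3 (2.32, adjusted p = 0.037). Alas2, the only red blood cell marker fitted, was also higher in PPARα −/− controls, by 0.59 (adjusted p = 0.029) and 0.73 (adjusted p = 0.0033), with levels of 8.65 to 9.51 against 8.30 to 9.03 and of 8.77 to 9.73 against 8.37 to 8.86. The 6 macrophage markers had differences of 0.41 to 1.06 in the first run (summed level 8.18 to 10.87 against 9.22 to 10.05) and 0.54 to 1.36 in the later one (9.96 to 10.75 against 9.45 to 10.14), of which limma called 0, with 0 and 4 at an unadjusted p under 0.05. The part of these markers in the Pdk4 difference was not tested.

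The PPARα target genes as a list lay the other way in the same controls. Of 21 fitted genes from a list of 26, 12 were lower and 0 higher in PPARα −/− mice in the first run, with a median difference of -0.95 against 0.02 over all probesets, of which 4.97% were lower. Among later controls 14 were lower and 0 higher, with a median of -0.91 against 0.02 and 4.22% lower. Slc25a20, which carries acylcarnitines into mitochondria, was lower by -2.57 (adjusted p = 4.4e-24) and -2.55 (adjusted p = 1.0e-24). Cyp4a14, a fatty acid ω-hydroxylase, Vnn1, which frees pantothenate from pantetheine, and Fgf21, a hormone of fasting, lay at the array floor in every PPARα −/− control. Acot3, a peroxisomal acyl-CoA thioesterase, at 0.82 and -0.34, and Cd36, a fatty acid carrier, at 0.71 and 0.40, did not pass in either run. Pdk4 thus had the highest value of these genes in both runs.

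**Figure D3:**
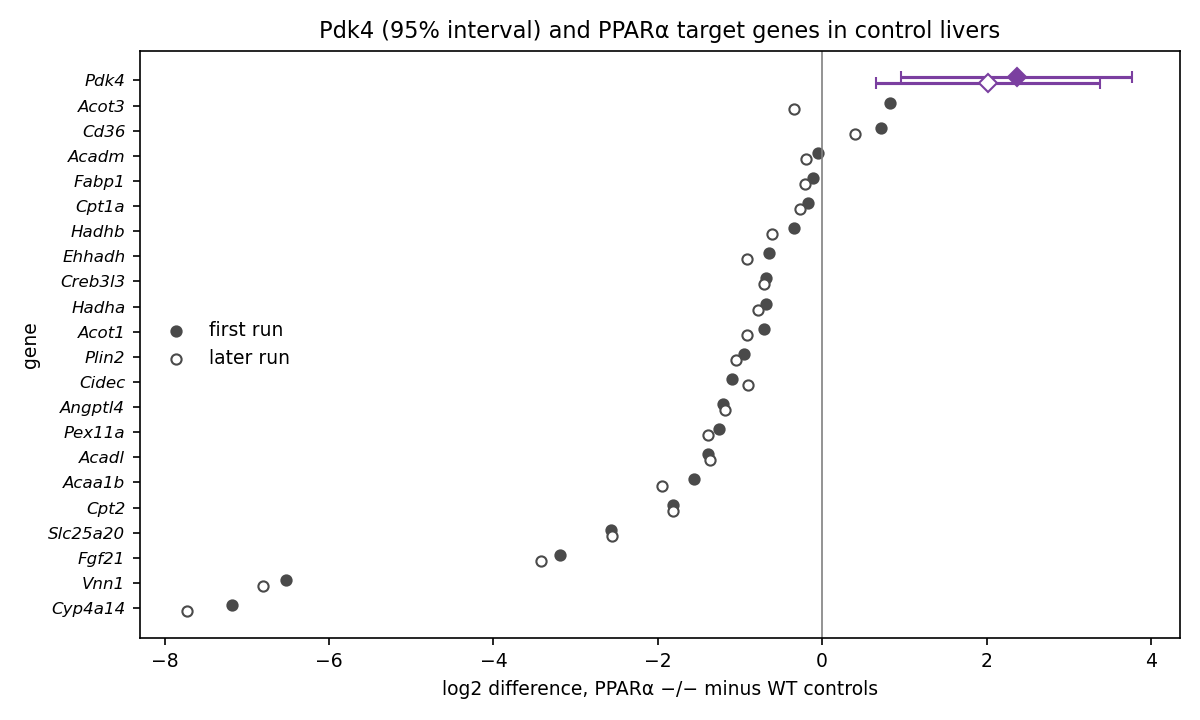
Log2 difference between PPARα −/− and WT control livers for Pdk4 (diamonds with 95% interval) and 21 PPARα target genes, in the first run (filled) and the later run (open). Pdk4 lies at 2.37 and 2.02, to the right of all the target genes, of which 12 and 14 were called lower. Genes at the array floor in PPARα −/− livers are drawn at their measured difference.

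Compounds given at the same dose within a run were compared in 14 pairs, each with p-values adjusted over all probesets and also over the pairs. In WT mice Pdk4 was higher after C22:6 than after C18:1, by 2.94 (SE 0.61, adjusted p = 0.00092, over the pairs 0.00011), where 3.22% of probesets were higher. With 2 of 5 C18:1 livers at the floor it was 2.39 with signals raised to the 10th percentile (adjusted p = 0.0052), and in a fit of these groups alone the call was lost (adjusted p = 0.087). These fatty acids differ in chain length and in the number of double bonds. C22:6 exceeded C20:5, also a polyunsaturated fatty acid, by 1.57 (95% interval 0.36 to 2.79, adjusted p = 0.55, over the pairs 0.034), with 0.029% of probesets higher, and the groups overlapped. C20:5 exceeded C18:1 by 1.36 (0.14 to 2.58, adjusted p = 0.32, over the pairs 0.058), with 0.947% higher. The exact permutation test of the 2 groups, without adjustment, gave p = 0.024, 0.11 and 0.15 for these pairs, in the order given. The intervals use a spread pooled over all groups (residual SD 0.99), below the SD of 1.44 after C22:6 and 1.52 after C18:1.

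C18:3, which has 1 more double bond than C18:2 at the same chain length, gave a Pdk4 signal higher by 1.52 (95% interval 0.22 to 2.81, adjusted p = 1.0, over the pairs 0.051), and limma called 0% of probesets in this pair, with 287 at an unadjusted p under 0.05. C18:2 was lower than the saturated medium-chain C10:0 by -1.72 (-3.01 to -0.43, adjusted p = 0.60, over the pairs 0.034), with 0.00966% lower. C18:3 and C10:0 differed by -0.20 (-1.42 to 1.02), an interval that allows more than a 2-fold difference either way. In these later-run pairs the SD was 1.46 after C18:2 and 1.60 after C10:0 and C18:3, above the pooled residual SD of 0.99. Their intervals and the p over the pairs therefore understate the spread of these groups. The exact permutation test gave p = 0.16 for C18:2 against C10:0 and 0.21 for C18:3 against C18:2. For WY14643 against fenofibrate it gave 0.016, the smallest p it can give. WY14643 exceeded fenofibrate by 1.67 (0.38 to 2.97, adjusted p = 0.19, over the pairs 0.034), with 1.01% of probesets called higher. Every WY14643 mouse lay above every fenofibrate mouse, and the share of all probesets that lay apart in this way is not given.

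In PPARα −/− mice 1 of the 7 pairs passed over all probesets. Pdk4 was higher after C22:6 than after C20:5 by 2.26 (SE 0.65, adjusted p = 0.039, over the pairs 0.0059), at least 1.82 from the floor, where 1.27% of probesets were higher. Without C22:6 replicate 2 it was 1.71 (adjusted p = 0.25), and the call was also lost without C22:6 replicate 3 (2.54, adjusted p = 0.053) or without any 1 of the 4 C20:5 mice (adjusted p = 0.067 to 0.093). The other 6 pairs ranged from -1.25 for C20:5 against C18:1, again with C20:5 at the floor, to 1.01 for C22:6 against C18:1.

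The order of Pdk4 levels in first-run WT mice was WY14643, fenofibrate, C22:6, C20:5, C18:1 and control. Of these neighbours only WY14643 and fenofibrate did not overlap. Fenofibrate and C22:6 overlapped between 9.24 and 9.54, and since their doses differ they were not tested against each other. In later WT mice the order was C10:0, C18:3, C18:2 and control, and only C18:2 and control did not overlap. In PPARα −/− mice it was C22:6, WY14643, control, C18:1, fenofibrate and C20:5 in the first run, where only fenofibrate and C20:5 did not overlap, and C18:3, control, C18:2 and C10:0 afterwards, where all neighbours overlapped. Levels of the runs were not set against each other, but changes were. Of 9 pairs of changes in WT mice limma called 0, with 2 at an unadjusted p under 0.05, and the extremes were C22:6 minus C18:2 at 2.73 (95% interval 0.77 to 4.69, over the pairs adjusted p = 0.062) and C18:1 minus C10:0 at -1.93 (-3.84 to -0.01, over the pairs adjusted p = 0.22). All first-run WT controls lay at the array floor, but only 1 of 4 later ones did, so these differences are not like for like. From the floor the first-run changes were at least 3.05 for C22:6 and at least 0.11 for C18:1. The differences across runs were not fitted with signals raised to the 10th percentile.

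Pdk4 varied more between mice of 1 group than most probesets did. Its residual SD was 0.99, the 96th highest of 10349 probesets, whose median was 0.26. In the 6 WT triglyceride groups the SD lay between 0.98 and 1.60 and was at or above that of 99.0% of probesets or more. After C18:1 it includes 2 of 5 livers at the array floor, where values have no order. The residual SD also includes the first-run WT controls and PPARα −/− C20:5 livers, all at the floor. After WY14643 in WT mice it was 0.10, exceeding 19.3% of probesets. In PPARα −/− mice it reached 1.33 after C22:6 and 1.18 after C18:3, each with 1 mouse near 9.0, and lay between 0.14 and 0.77 in the other groups.

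Few changes of the other kinases and phosphatases passed the test. Of 7 genes on that list 4 were fitted: Pdk4, the kinases Pdk1 and Pdk2, and Pdpr, the regulatory subunit of the phosphatase. Pdk2, the broadly expressed kinase, fell by 0.46 after WY14643 in WT mice (SE 0.17, adjusted p = 0.034), while 14.3% of probesets fell, and its other WT values lay between -0.36 and 0.31 without passing. After C22:6 in PPARα −/− mice Pdk1 fell by 0.95 (SE 0.24, adjusted p = 0.0046) and Pdk2 by 0.61 (SE 0.14, adjusted p = 0.0022), where 8.54% of probesets fell. All 3 Pdk1 probesets passed there, at -0.95, -1.23 and -0.92. Pdpr passed in no comparison with controls.

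No subunit of the complex itself was called. Of 5 subunit genes 4 were fitted, Pdha1 and Pdhb of the E1 enzyme that the kinases phosphorylate, Dlat of the E2 core and Pdhx, which binds the E3 enzyme, and Dld fell under the filter on variation. In the 16 comparisons with controls and the 2 between control groups, limma called 0 of their 72 values, and 1 had an unadjusted p under 0.05. Over all probesets the share called ran from 0% to 26.8% in the comparisons with controls, so few subunit calls would be looked for in most of them. The subunit values, from the probeset with the highest mean of each gene, ranged from -0.41 (Dlat after C22:6 in PPARα −/− mice, adjusted p = 0.12) to 0.31. Other Dlat probesets reached -0.54 after C10:0 in PPARα −/− mice (adjusted p = 0.070) and 0.49 after fenofibrate in WT mice (adjusted p = 0.068), without passing.

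**Figure D4:**
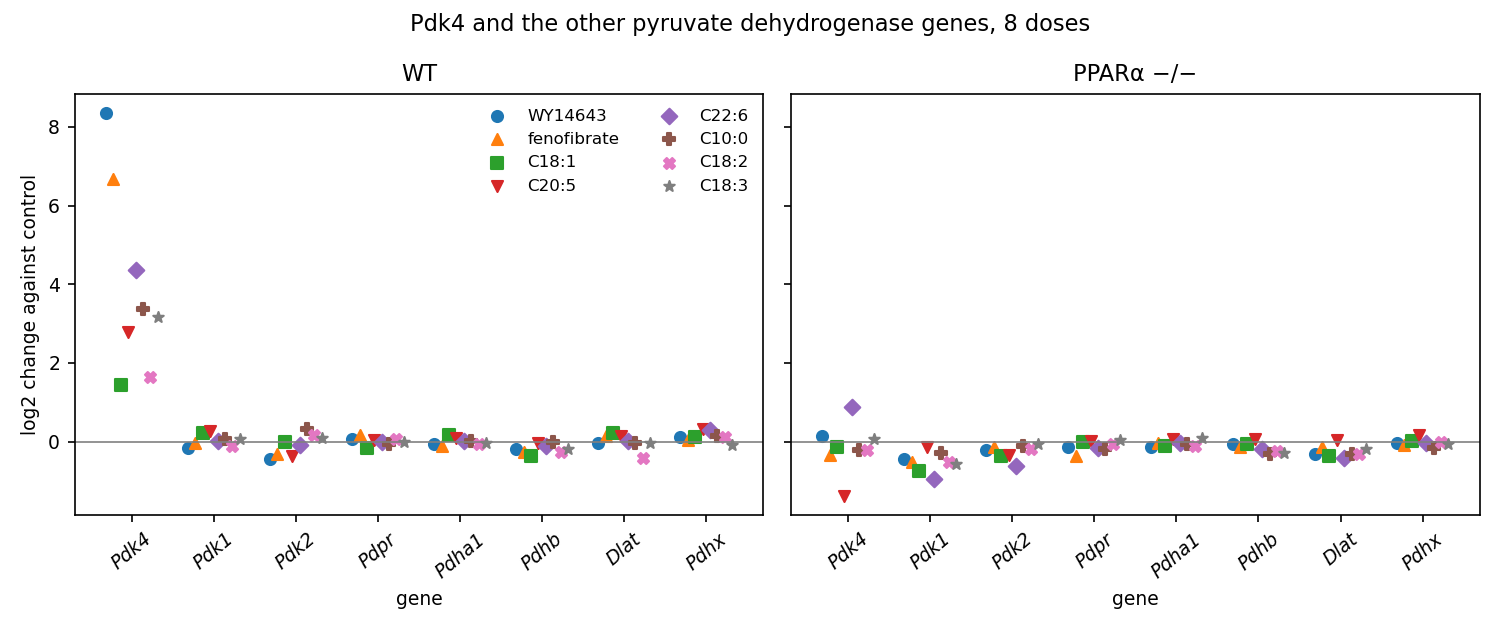
Log2 change against control for Pdk4, the kinases Pdk1 and Pdk2, the phosphatase subunit Pdpr and 4 subunits of the complex, for 8 oral doses in WT (left) and PPARα −/− mice (right). Pdk4 spreads from 1.43 to 8.36 in WT mice, and the 7 other genes stay within 0.46 of 0 there.

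Of 14 genes that supply or use pyruvate 12 were fitted, and limma called 3 in WT mice after each agonist, where 26.8% of all probesets were called for WY14643 and 13.9% for fenofibrate. WY14643 raised 2 in WT mice (Slc16a1, the monocarboxylate transporter MCT1, by 2.06, adjusted p = 1.9e-11, and its relative Slc16a7 by 0.73, adjusted p = 0.022) and lowered Pck1, which starts glucose synthesis from oxaloacetate, by -0.42 (adjusted p = 0.031), with a median of -0.15 against -0.05 over all probesets. Fenofibrate raised Slc16a1 by 1.32 (adjusted p = 4.6e-06) and lowered Gpt by -0.47 (adjusted p = 0.014) and Gpt2 by -0.53 (adjusted p = 0.045), both alanine transaminases that form pyruvate, where 6.43% of probesets fell. After C22:6, C20:5, C18:1, C18:2 and C18:3 limma called 0 of the 12 in WT mice, with 3, 0, 0, 1 and 3 at an unadjusted p under 0.05, and after C10:0 only Pcx, pyruvate carboxylase, rose, by 0.32 (adjusted p = 0.039), where 1.19% of probesets rose. Pklr, liver pyruvate kinase, fell in PPARα −/− mice after C22:6 (-1.71, adjusted p = 0.0038), C18:1 (-1.52, adjusted p = 0.044) and C18:3 (-1.35, adjusted p = 0.036), where 8.54%, 0.599% and 4.49% of probesets fell. In these groups 2, 1 and 0 genes of the list rose, where 6.34%, 0.879% and 6.08% of probesets rose. After C10:0 in PPARα −/− mice 1 gene of the list rose, where 3.49% of probesets rose.

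Of 9 fitted factors known to act on Pdk4 transcription, of 12 listed, WY14643 raised Ppara itself by 0.63 (adjusted p = 0.0096) and lowered its partner Rxra by -0.70 (adjusted p = 1.8e-07) in WT mice, 2 of 9 against 26.8% of all probesets called. Rxra also fell after fenofibrate (-0.44, adjusted p = 0.00088) and C18:3 (-0.32, adjusted p = 0.030), the only factor called there, where 13.9% and 3.52% of all probesets were called. The coactivator Ppargc1a had -1.03 (adjusted p = 0.17), with the treated livers at the floor, and Ppargc1b 0.87 (adjusted p = 0.095). After C18:1, C20:5, C22:6, C10:0 and C18:2 limma called 0 of the 9 in WT mice, with 0, 0, 2, 2 and 2 at an unadjusted p under 0.05. In PPARα −/− mice 2 of the 9 fell after C22:6 and 1 after C10:0, where 8.54% and 3.43% of probesets fell. Over the 93 livers the deviations of Ppara from its group means correlated with those of Pdk4 by -0.006. In WT livers alone this value was -0.10 and in PPARα −/− livers alone 0.089. Over the 93 livers the deviations of Foxo1, a forkhead factor of fasting, correlated by 0.21, and those of Cebpb, a liver transcription factor, by 0.42. The Ppara values, the rise of 0.63 included, come from its probeset with the highest mean signal. The signals of that probeset overlapped between the genotypes, so it is not the Ppara probeset that separated them. For the separating probeset neither the change nor the correlation is given.

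Among 10 fitted genes of 14 that respond to insulin, fasting or glucocorticoids, 3 passed in WT mice after C22:6, 1 each after WY14643, fenofibrate, C20:5, C10:0, C18:2 and C18:3, and 0 after C18:1, with 1 at an unadjusted p under 0.05. The shares of all probesets called were 5.87%, 26.8%, 13.9%, 0.551%, 1.59%, 0.435%, 3.52% and 0%, in this order. After C22:6 Srebf1, which drives lipid synthesis in response to insulin, fell by 1.44 (adjusted p = 0.035), and Fkbp5, a glucocorticoid response gene, rose by 1.33 (adjusted p = 0.039), as did Txnip, which restrains glucose uptake, by 1.24 (adjusted p = 0.0055), where 3.71% of probesets rose and 2.16% fell. Txnip also rose after fenofibrate (1.12, adjusted p = 0.0056) and C20:5 (1.24, adjusted p = 0.030), and Fkbp5 after C10:0 (1.55, adjusted p = 0.018). After WY14643 these 3 genes did not pass, with 0.41 for Fkbp5 (adjusted p = 0.54). Srebf1 also fell after C18:2 (-1.69, adjusted p = 0.046), after which Pdk4 did not pass the test, and after C18:3 (-1.54, adjusted p = 0.017). It fell in PPARα −/− mice, where Pdk4 did not pass, after C18:1, C22:6, C10:0, C18:2 and C18:3, by -1.97 to -2.78 (adjusted p = 1.8e-05 to 0.0012), and G6pc, glucose 6-phosphatase, fell by 1.79 after C20:5 (adjusted p = 0.0027), the dose with the lowest Pdk4. In these groups, in the order named, 1, 1, 1, 1, 2 and 0 genes of this list rose and 1, 3, 1, 1, 1 and 1 fell. The shares of all probesets called were 1.48%, 14.9%, 6.92%, 0.271%, 10.6% and 0.0676%.

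PPARα targets rose with Pdk4 in WT mice, in numbers that differed by dose. Of the 21 fitted, WY14643 raised 19, fenofibrate 15, C22:6 13, C18:3 12, C20:5 5, C10:0 4, C18:2 3 and C18:1 0, with 5 at an unadjusted p under 0.05 after C18:1. Among all probesets 12.5%, 7.51%, 3.71%, 2.51%, 0.493%, 1.19%, 0.377% and 0% rose, in this order of doses. The median changes were 1.19, 0.86, 0.57, 0.50, 0.44, 0.37, 0.37 and 0.14, against medians over all probesets between -0.05 and 0.02. Acot3 rose by 6.91 after WY14643 and 5.95 after C22:6, Acot1, its cytosolic relative, by 4.02 and 2.68, and Cyp4a14 by 3.52 and 2.96 (adjusted p = 8.2e-06 or less for each). In PPARα −/− mice, in which no change of Pdk4 passed, 8 targets rose after C22:6 and C18:3, 7 after C18:1, 4 after fenofibrate and C10:0, 1 after C20:5 and C18:2 and 0 after WY14643, with 7 at an unadjusted p under 0.05. After C10:0 Acaa1b, a peroxisomal thiolase, fell by 0.64 (adjusted p = 0.024), where 3.43% of probesets fell. The shares of all probesets that rose in these groups were 6.34%, 6.08%, 0.879%, 0.106%, 3.49%, 0.029%, 0.193% and 0%, in the same order. Acot1 was among those that rose there, by 1.32 after C22:6 (adjusted p = 0.0047) and 1.76 after C18:1 (adjusted p = 0.0012).

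The genes whose changes were most like those of Pdk4 were ranked by Pearson's r over the 16 changes against control, which share controls and are a description. They were Ehhadh, the peroxisomal bifunctional enzyme (0.967), Kdsr, of sphingolipid synthesis (0.965), Hsd17b7 (0.961), Cbfa2t3 (0.961), Alpl, alkaline phosphatase (0.959), Ddhd2, a phospholipase (0.956), Fitm2, of lipid droplet formation (0.953), and Cyp4a14 (0.951). Without the 2 agonists in WT mice r stayed between 0.857 for Fitm2 and 0.959 for Cyp4a14. Ehhadh rose by 2.67, 2.48, 1.76, 1.38 and 1.26 after WY14643, fenofibrate, C22:6, C10:0 and C18:3 in WT mice, with adjusted p = 0.00046 or less, and passed in none of the 8 comparisons in PPARα −/− mice.

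Mice of the same group that differed in Pdk4 also differed in other genes. Deviations from the group mean were correlated over the 93 livers, which share their arrays and groups, and the median r over all genes was -0.041, with -0.473 at the 1st percentile and 0.458 at the 99th. The highest were Slc22a5, the carnitine transporter (0.700), Gadd45b, a stress-response gene (0.667), Hsdl2, a peroxisomal enzyme (0.661), Acot1 (0.653), Cidec, a lipid droplet protein (0.646), Rab30 (0.640), Cyp4a31 (0.612) and Igfbp1, which fasting raises and insulin lowers (0.612). The lowest were Fgfr4, the receptor that lowers bile acid synthesis (-0.603), Gnpda1 (-0.600) and Tstd3 (-0.594). Pklr had -0.554 and Srebf1 -0.523.

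Within each genotype the values, without a test, were as follows. Slc22a5 had 0.806 in 45 WT and 0.571 in 48 PPARα −/− livers, Igfbp1 0.686 and 0.492, and Fgfr4 -0.618 and -0.581. Without the 2 livers farthest from their group mean in Pdk4 they were 0.679, 0.599 and -0.549. Ehhadh had 0.799 in WT and -0.166 in PPARα −/− livers, and Cpt2, of mitochondrial fatty acid import, 0.635 and -0.021. Some PPARα targets were clearly positive in both genotypes, such as Acot1 with 0.814 and 0.490, Cidec with 0.673 and 0.572 and Acadl with 0.575 and 0.526. In PPARα −/− livers Acadm (-0.027), Vnn1 (-0.058), Cd36 (-0.011) and Fabp1 (-0.143) were also below 0. Hadha (0.013), Acaa1b (0.031) and Acot3 (0.032) lay near 0 there. The deviations of Alas2, a red blood cell marker, had -0.354 and those of Cela1, a pancreas marker, -0.286, and their part in the spread of Pdk4 was not tested.

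In the 5 WT livers after C22:6, in the order of the Pdk4 values given above, Acot1 had a signal of 11.59, 11.50, 10.05, 11.30 and 11.59, and Srebf1 of 7.27, 7.63, 9.13, 7.86 and 7.50. Replicate 3 had the lowest Pdk4 and Acot1 and the highest Srebf1 of its group. In the 5 WT livers after C18:3 Acot1 had 10.66, 11.56, 11.86, 10.37 and 11.05 and Srebf1 8.36, 7.51, 7.98, 8.94 and 7.84, where replicate 4 had the lowest Pdk4 and Acot1 and the highest Srebf1. In the 5 PPARα −/− livers after C22:6 Igfbp1 had 11.05, 13.03, 11.82, 12.34 and 12.39, and replicate 2, highest in Pdk4, was also highest in Igfbp1. Pklr there had 8.47, 5.74, 6.95, 7.49 and 7.98, lowest in the same mouse. All these livers also entered the correlations above, and genes and mice were picked with their values known. Single mice therefore illustrate those correlations and add no support to them.

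**Figure D5:**
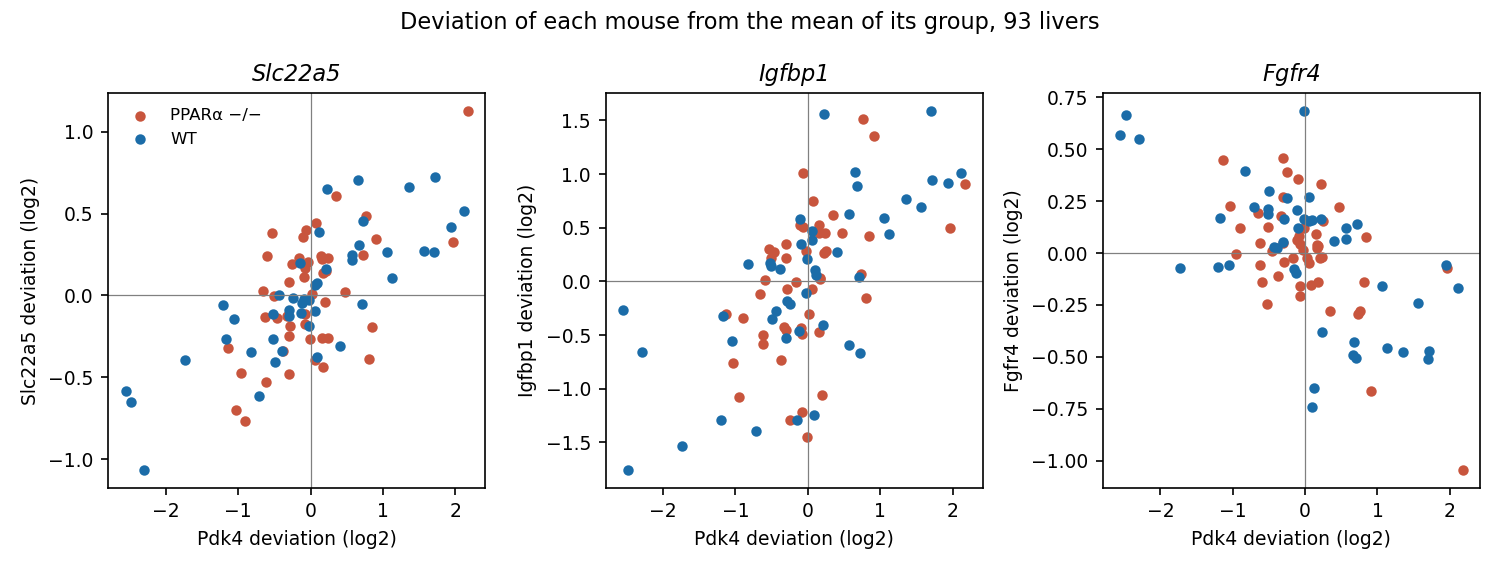
Deviation of Slc22a5, Igfbp1 and Fgfr4 from the mean of the group (log2) against that of Pdk4, each point 1 liver, WT in blue and PPARα −/− in red. Slc22a5 and Igfbp1 lie along a rising line (r = 0.700 and 0.612 over 93 livers) and Fgfr4 along a falling one (r = -0.603).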

How the data were processed

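Livers of 93 mice were hybridised to Affymetrix Mouse Genome 430 2.0 arrays. Per the labels and methods, the authors computed the deposited intensity values with GC-RMA (GCRMA 2.20), an empirical Bayes background and quartile normalization, and kept probesets by their inter-quartile range (IQR). The values are linear, and their log2 was taken. GC-RMA compresses signals near the background, so low values have no reliable order. Of 11463 probesets 51 control probesets were left out, and 10349 with an IQR of at least 0.25 over the 83 arrays other than C10:0 were fitted. Symbols came from the platform annotation (10279 probesets with 1 symbol, 406 with several, 727 with none).

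One limma fit with 1 mean per group over all 93 arrays gave each contrast. P values were adjusted by Benjamini and Hochberg's method across the 10349 probesets, and a change with an adjusted p under 0.05 was called. Where a group lay at or below the 10th percentile of every array, a bound is given from that percentile. The 95% intervals are limma's. Exact two-sided permutation tests used the 2 groups, and their p-values were not adjusted. Precision is limited by the number of mice, each of which is 1 replicate. A gene is its probeset with the highest mean signal.

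Pdk4 and the lists were chosen with earlier results of these data known. Named are all measured kinases, phosphatases and subunits, the 4 largest changes of other lists per WT comparison, the 8 genes most like Pdk4 over 16 changes, and the 8 highest and 3 lowest by deviations. Genes outside this rule, values of named genes in other comparisons and the mice described singly were picked with their values known. Alternatives were other filters, 83 arrays, the compared groups alone, a replicate block, an intensity trend, array weights, other scalings, the study's threshold (unadjusted p under 0.01) and leaving out each mouse. Neither labels nor methods say that equal replicate numbers share anything. Of 32 comparisons checked, in 1 (PPARα −/− WY14643 against control) all pairs deviated together, r = 0.11 to 0.30. The fit was tested on simulated data with the same spread in every group of a probeset. For Pdk4 the SD ran from 0.10 (WT WY14643) to 1.60 (WT C10:0), so this test does not cover its unequal spread. The models were run in limma 3.58.1 under R 4.3.3, permutations in scipy 1.17.1 under Python 3.11.15, and plots in matplotlib 3.10.9.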

Additional observations from a re-analysis of the deposited data

Results flagged for a closer look

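Dixon's ratio was applied to Pdk4 in the 19 groups of 4 or 5 mice, where chance flags about 1 in 20 groups, and 2 mice stood out. In WT mice given C20:5, replicate 5 had a log2 signal of 8.10 while the other 4 lay between 5.57 and 6.25. Without it the change was 2.37 (adjusted p = 0.15). In PPARα −/− mice given C18:2, replicate 5 had 7.60 while the other 4 lay between 6.45 and 6.72.

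The change of Pdk4 differed between the genotypes, by the test of the difference itself, for WY14643 (-8.21), fenofibrate (-7.02) and C22:6 (-3.49), PPARα −/− minus WT on the log2 scale. Genotype and substrain cannot be told apart in these values.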

How the results depend on the processing

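No called result changed direction, while some uncalled values near 0 changed sign, in single cases with array weights, another scaling or the replicate block and otherwise when 1 mouse was left out, such as PPARα −/− C18:3 against control (-0.43 to 0.37) and WT C18:3 against C10:0 (-0.84 to 0.42). Pdk4 in WT mice after WY14643 and fenofibrate, and the genotype differences for these agonists, kept their calls in every limma fit. Calls also stood for all 49 results without the IQR filter, with an intensity trend and with median centring, and for the 40 run with a log2 signal filter, which leaves out the 9 differences across runs. What remains was not tested for its cause. In fits of the compared groups alone, calls were lost for WT C20:5 (2.80), C22:6 (4.37), C10:0 (3.36) and C18:3 (3.16), the genotype difference for C22:6 (-3.49), WT C22:6 against C18:1 (2.94) and PPARα −/− C22:6 against C20:5 (2.26), and gained for later-run controls between genotypes (2.02), the genotype difference for C20:5 (-4.17), WT WY14643 against fenofibrate (1.67) and PPARα −/− C20:5 against C18:1 (-1.25). Array weights gained the genotype differences for C20:5 (-3.95) and C18:3 (-3.55), WT C20:5 against C18:1 (1.53), WT C22:6 against C20:5 (1.95) and WY14643 against fenofibrate (1.72), and lost PPARα −/− C22:6 against C20:5 (1.80). Quantile normalization gained the C20:5 genotype difference (-4.31), and the 83 arrays the later-run controls (2.02). The study's threshold gained the later-run controls (2.02), the genotype differences for C20:5 (-4.17), C10:0 (-3.56) and C18:3 (-3.09), and WT C18:2 against C10:0 (-1.72). With signals raised to the array's 10th percentile, chosen after seeing the data, WT C20:5 (1.48), the first-run controls (1.05), the C22:6 genotype difference (-2.17) and PPARα −/− C22:6 against C20:5 (1.82) were lost and the later-run controls (1.98) gained. The exact permutation test was held to an unadjusted p under 0.05, a looser rule than the calls, which are adjusted over all probesets. Its smallest p for 3 against 4 mice is 0.057, so WT WY14643 (8.36) was lost. By this rule WT C18:2 (1.64), PPARα −/− C20:5 (-1.38), the later-run controls (2.02), WT WY14643 against fenofibrate (1.67) and PPARα −/− C20:5 against C18:1 (-1.25) were gained. Each of these gained results is a full separation of the groups, at the smallest p that their sizes allow.

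Where leaving out 1 mouse changed a call, the values ranged from 2.37 to 3.13 for WT C20:5, 2.01 to 2.70 and 1.72 to 2.32 for the controls of the first and later run, -4.07 to -3.10, -4.20 to -3.22 and -3.71 to -2.66 for the genotype differences of C22:6, C10:0 and C18:3, and 1.71 to 2.54 for PPARα −/− C22:6 against C20:5. A replicate block, in fits of the compared groups alone, lost WT C20:5 (2.33), C22:6 (4.17), C10:0 (3.02) and C18:3 (2.98), the first-run controls (2.57), the C22:6 genotype difference (-3.50) and PPARα −/− C22:6 against C20:5 (2.20), and gained the later-run controls (2.02) and WY14643 against fenofibrate (1.84). In the 1 comparison whose pairs all deviated together, PPARα −/− WY14643 against control, the block gave 0.15 and no call. No other probeset of Pdk4 could be tried.

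Counts of all probesets called depended more on the setting. Array weights gave 314 higher and 180 lower instead of 51 and 6 for WT C20:5, 365 and 315 instead of 123 and 42 for WT C10:0, 145 and 45 instead of 39 and 6 for WT C18:2, 530 and 371 instead of 260 and 104 for WT C18:3, 566 and 517 instead of 384 and 224 for WT C22:6, 248 and 163 instead of 0 and 0 for PPARα −/− WY14643, and 443 and 507 instead of 656 and 884 for PPARα −/− C22:6. Quantile normalization gave 57 and 28 for WT C10:0 and 20 and 7 for WT C18:2. At the study's threshold 10 PPARα targets rose after C20:5 and 10 after C18:2 in WT mice instead of 5 and 3. Among all 10349 probesets 246 and 290 rose at that threshold, instead of 51 and 39.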
